A study of Mus musculus with 6 samples.

Results

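Transcripts of 10 genes that mark vascular endothelium were followed in epididymal white adipose tissue (eWAT), the fat pad beside the epididymis, of wild-type and Maf1 knockout mice. The genes were Pecam1, Cdh5, Vwf, Cldn5, Eng, Kdr, Tek, Tie1, Emcn and Egfl7. They were taken by symbol from a table of 28529 genes. All 10 were found, and all 10 were among the 16101 genes that passed the filter on low counts. MAF1 is a repressor of RNA polymerase III, and the comparison asks which transcripts of this fat pad differ when it is missing.

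The wild-type group (WT1, WT2 and WT3) and the knockout group (KO1, KO2 and KO3) each held 3 male mice of strain C57BL/6 (given as C57Bl/6J in the study's methods) aged 22 to 24 weeks, with 1 library per mouse. All 6 mice had been kept on a breeder chow and fasted overnight, and the knockout group lacked Maf1 in every cell of the body, so no value below separates an effect in vessels from one in fat or elsewhere. Total RNA was depleted of ribosomal RNA, and the library protocol retained the transcript strand. Library totals lay between 7207476 (KO2) and 15971900 (WT2) counts.

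Before the genes themselves, 3 features of the libraries have to be given. Maf1 held 655, 1120 and 852 counts in the wild-type libraries (56.9, 66.9 and 66.5 counts scaled to a common library size, CPM) and 150, 87 and 300 counts in the knockout libraries (13.6, 11.6 and 22.2 CPM). It was thus lower in every knockout library, as labelled, but not at 0, and was highest among these in KO3; whole-gene counts do not show where in the gene the remaining reads lie. The first principal component of log2 expression held 63.1% of the variance and set WT1 and KO1 apart from the other 4 libraries. Markers of neighbouring reproductive tissue were unevenly spread: 11 epididymis and testis genes of 17 in the table passed the filter, and the summed level of the list in CPM, scaled with TMM factors, was 20.7 to 6092 CPM in wild type and 796 to 7236 CPM in knockout, lowest in WT1 and KO1. For vas deferens and seminal vesicle, 2 of 8 genes passed, and the sum was 19.3 to 28.7 CPM in wild type and 21.1 to 8313 CPM in knockout, nearly all of it Akr1b7 in KO1 and KO2. No gene of either list was at 0 in all libraries. The part of these tissues in the values below was not tested. One fit left out the rows of their markers, but other RNA of these tissues stays in the counts.

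Endothelial cells line every blood vessel, and in fat they form a dense capillary bed that delivers fatty acids and glucose to adipocytes. They hold together through the adherens junction protein VE-cadherin and tight junction claudins, and they survive and sprout under growth factors that act on the VEGF receptor KDR and on the angiopoietin receptor TEK. Transcription factors of the ETS family act at many genes that are specific to these cells, often through the core letters GGAA.

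The members lie on 8 chromosomes, and all are protein coding. In mm9, the build to which the reads were aligned, they span chr11:106515531-106611942 (Pecam1), chr8:106625525-106668402 (Cdh5), chr6:125496792-125636697 (Vwf), chr16:18776940-18778353 (Cldn5), chr2:32502115-32538189 (Eng), chr5:76328852-76374483 (Kdr), chr4:94405980-94541667 (Tek), chr4:118143796-118162666 (Tie1), chr3:137004031-137095149 (Emcn) and chr2:26435534-26448640 (Egfl7). Counts were of whole genes, so a value covers all exons together and does not separate isoforms.

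Promoters were available for 7 of the 10 members in a RefSeq table of the later build GRCm38.p6, which holds 250 bases before to 50 bases after each start site, 9 promoters in all. The letters ACTTCC, or GGAAGT on the other strand, an ETS core with its flank, stood in 5 of these 9 promoters, of Eng, Kdr, Tie1 and Egfl7, against 23.8% of all 32851 promoters of that length. Of the 4 motifs searched this one is shown, a choice made after the counts of matches were seen. One stretch of 54 bases per gene is given on the coding strand with the motif in capitals.
Eng, chr2:32646518-32646571, plus strand, motif from base -53: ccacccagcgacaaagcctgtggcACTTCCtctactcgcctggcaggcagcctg
Kdr, chr5:75978643-75978696, minus strand, motif from base -217: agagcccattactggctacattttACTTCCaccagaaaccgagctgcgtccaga
Tie1, chr4:118489902-118489955, minus strand, motif from base -82: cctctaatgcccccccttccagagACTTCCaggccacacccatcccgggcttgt
Egfl7, chr2:26580842-26580895, plus strand, motif from base -217: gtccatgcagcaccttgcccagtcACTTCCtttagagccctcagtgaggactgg

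The other motifs searched on both strands were a TATA box (TATAAA), in 0 of the 9 member promoters against 13.6% of all, a GATA site (AGATAA), in 1 (Tek) against 11.2%, and a KLF site (CACCC), in 6 against 57.5%. Eng, Kdr, Tie1 and Egfl7 each also held the KLF letters. These matches describe letters in a window of 300 bases, and no binding was measured here.

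Scaled for length, Cldn5, Pecam1 and Cdh5 were the most abundant markers on merged exons, and Tie1, Vwf and Emcn the least. Levels are compared as TMM-scaled CPM per kilobase of merged exons (RPKM), averaged over the 6 libraries. Cldn5 stood at 69.4 RPKM, Pecam1 at 59.4, Cdh5 at 45.5, Eng at 35.8, Egfl7 at 31.3, Kdr at 19.8, Tek at 15.2, Tie1 at 8.8, Vwf at 7.0 and Emcn at 6.73. Neighbours in that order were separated in all 6 libraries for Pecam1 over Cdh5, Kdr over Tek, Tek over Tie1 and Tie1 over Vwf. Cldn5 exceeded Pecam1 in only 4 libraries, Eng exceeded Egfl7 in 2 and Vwf exceeded Emcn in 4, so these neighbours were not ordered beyond their spread. The order also depends on the length used. With the longest coding transcript in place of all annotated exons, a choice made after seeing the data, Vwf rose to 12.7, Emcn to 14.1 and Egfl7 to 60.2, so that Egfl7 passed Cdh5, Pecam1 at 74.4 became the highest and Tie1 at 10.6 the lowest.

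Compared between genotypes, all 10 markers had a lower fitted level in knockout eWAT, by log2 fold changes of -0.11 to -0.65, and none of these differences passed the test across all genes. Their median log2 fold change was -0.36, while that of all 16101 genes tested was 0.0078. Below 0 were 10 of 10 members and 48.9% of all genes. With edgeR's quasi-likelihood test and Benjamini-Hochberg adjustment over all genes, 0 of 10 members passed an adjusted p of 0.05, beside 0 of 16101 genes (0% of all genes), and at an unadjusted p of 0.05 it was 0 of 10 members beside 302 genes (1.88%). The adjusted p of each member was 1.00. As none of these differences passed, a decrease is not established. Whole tissue also cannot separate the number of endothelial cells from the RNA per cell, and neither was tested.

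**Figure D1:**
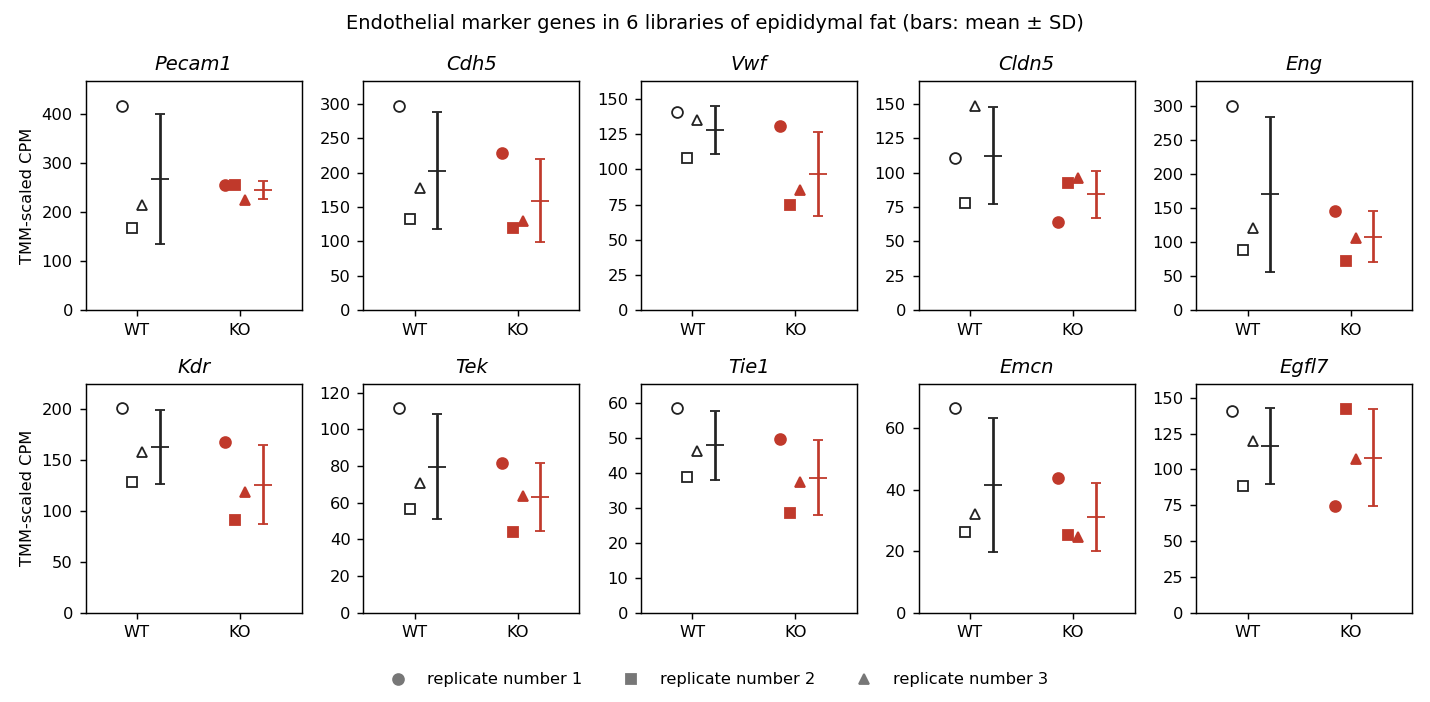
TMM-scaled CPM (y axis, from 0) of each endothelial marker gene in the 3 WT (black, open) and 3 KO (red, filled) libraries, with marker shape for the replicate number and bars for mean ± SD. WT1 is the highest library in 8 of the 10 panels, the exceptions being Cldn5 (WT3) and Egfl7 (KO2), and the groups overlap in every panel.

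The junction and adhesion genes come first. Pecam1 encodes CD31, an adhesion protein at contacts between endothelial cells that platelets and leukocytes also carry. Wild-type libraries 1, 2 and 3 held 418, 168 and 215 CPM, and knockout libraries 1, 2 and 3 held 256, 255 and 224 CPM, the order kept for all genes below. The knockout libraries lay close together, within 1.14-fold of each other, and between the highest and the second of the wild-type libraries, while the wild-type libraries covered a 2.48-fold range that included both the highest and the lowest value. The log2 fold change was -0.12 ± 0.36 (SE), with a 95% interval from -0.97 to 0.73.

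Cdh5 encodes VE-cadherin, the cadherin of endothelial adherens junctions, and is among the most specific markers of the lineage. It measured 298, 133 and 178 CPM in wild type and 229, 120 and 130 CPM in knockout. WT1 was highest and KO1 second, and KO2, KO3 and WT2 lay together at the bottom. The fitted difference was -0.35 ± 0.39 (SE) on the log2 scale.

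Cldn5 encodes claudin 5, the tight junction protein best known from brain vessels. In wild type it stood at 110, 77.8 and 149 CPM and in knockout at 64.2, 92.2 and 95.7 CPM. Its order differed from that of most other markers, with WT3 highest and KO1 lowest. All 3 knockout values lay below the wild-type mean of 112 ± 35.4 CPM (SD, n = 3), but WT2 lay below KO2 and KO3, so the groups overlapped. The log2 fold change was -0.42 ± 0.29 (SE).

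Emcn encodes endomucin, a sialoglycoprotein at the surface of capillary and venous endothelium. It measured 66.5, 26.3 and 32.1 CPM in wild type and 43.9, 25.2 and 24.5 CPM in knockout. WT1 stood 2.53-fold above WT2, a wider gap than the one between the group means. Its log2 fold change was -0.42 ± 0.42 (SE).

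The receptors were lower in the knockout libraries on average as well. Kdr encodes VEGF receptor 2, the main signalling receptor for VEGF-A in endothelium. It gave 201, 129 and 158 CPM in wild type and 168, 90.9 and 119 CPM in knockout, which overlapped because KO1 exceeded both WT2 and WT3. The log2 fold change was -0.37 ± 0.29 (SE), with a 95% interval from -1.06 to 0.32.

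Tek encodes TIE2, the receptor of the angiopoietins, and Tie1 its partner receptor, which binds no angiopoietin by itself. Tek measured 112, 56.4 and 71.0 CPM in wild type and 81.7, 44.2 and 63.6 CPM in knockout. Tie1 measured 58.5, 38.9 and 46.2 CPM in wild type and 49.8, 28.7 and 37.5 CPM in knockout. Both receptors had the same order of libraries, WT1, KO1, WT3, with KO2 lowest, except that KO3 stood above WT2 for Tek and below it for Tie1. Their log2 fold changes were -0.33 ± 0.33 (SE) for Tek and -0.31 ± 0.26 (SE) for Tie1.

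Eng encodes endoglin, a co-receptor for BMP9 and TGF-beta that is mutated in hereditary haemorrhagic telangiectasia. Among the members it had the largest fitted difference and also the largest spread. Its level was 300.02, 88.6 and 121 CPM in wild type and 146, 71.8 and 106 CPM in knockout. WT1 alone exceeded every other library by more than 2-fold, and WT2 lay below KO1 and KO3. The log2 fold change was -0.65 ± 0.50 (SE), with a 95% interval from -1.86 to 0.55.

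Last come the secreted products. Vwf encodes von Willebrand factor, which endothelial cells store and release and which tethers platelets at injured vessels. With 141, 108 and 135 CPM in wild type it was the steadiest marker within that group, within 1.30-fold, and knockout mice gave 131, 74.6 and 85.3 CPM. KO2 and KO3 lay below all wild-type libraries, but KO1 lay above WT2. The log2 fold change was -0.40 ± 0.26 (SE), with a 95% interval from -1.02 to 0.22, and its unadjusted p in the same edgeR quasi-likelihood fit, 0.17, was the lowest of the 10 members.

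Egfl7 encodes a secreted protein of the vessel matrix and carries the microRNA gene Mir126 within it, which is not analysed here. It stood at 141, 88.6 and 120 CPM in wild type and 74.5, 142 and 107 CPM in knockout. The knockout group held both the highest library (KO2) and the lowest (KO1). Its log2 fold change, -0.11 ± 0.29 (SE), was the smallest of the 10.

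For a single value, the exact two-sided permutation test over the 6 libraries cannot go below 0.1, and on the members' log2 CPM it gave 0.2 (Vwf) to 1.0 (Pecam1). None of the 10 members separated the genotypes without overlap, whereas all knockout libraries lay below all wild-type libraries for 3.37% of the genes tested.

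Counting error and the spread between mice were of different size. Each member held 188 (Emcn in KO2) to 4804 (Pecam1 in WT1) counts per library, which gives a counting error of 1.44% to 7.29%. The biological coefficient of variation fitted by edgeR was 28.5% (Tie1) to 46.2% (Eng), with a median of 35.1% over all genes tested.

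**Figure D2:**
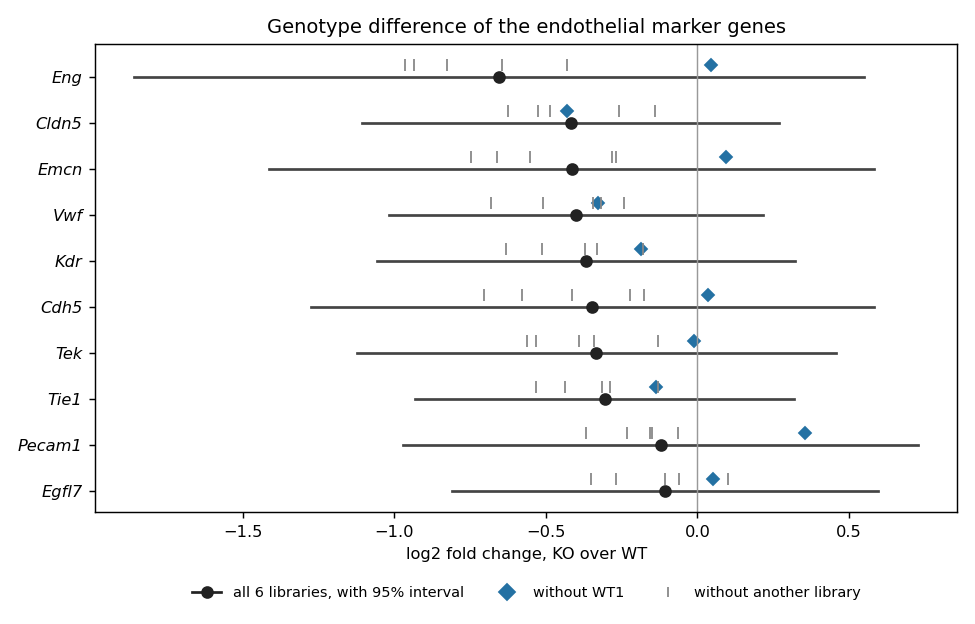
Log2 fold change of KO over WT (x axis) of each endothelial marker gene with all 6 libraries (black point, bar for the 95% interval), without WT1 (blue diamond) and without each other library (grey ticks). Every interval includes 0, and 5 of the 10 blue diamonds lie at or above 0 while all black points lie below it.

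A single wild-type library carried much of the difference. Summed over the 10 genes, the level was 1845, 914 and 1224 CPM in wild type and 1244, 945 and 993 CPM in knockout. WT1 was 2.02-fold above WT2, while the knockout mean of 1061 ± 161 CPM (SD, n = 3) was 0.799 of the wild-type mean of 1328 ± 474 CPM (SD, n = 3). Of the 10 members, 8 had their highest level in WT1, as did 22.5% of all genes tested.

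Without WT1 the median log2 fold change of the members was 0.012, 5 of 10 lay below 0 (Vwf, Cldn5, Kdr, Tek and Tie1), and the ratio of the sums was 0.991. Of these 5, Tek moved from -0.33 to -0.011, Kdr to -0.19 and Tie1 to -0.14. In that fit Pecam1 was at 0.36, Cdh5 at 0.035, Eng at 0.043, Emcn at 0.094 and Egfl7 at 0.052 on the log2 scale. Leaving out KO2 instead, the shallowest library and the lowest for 6 members, gave a median of -0.21 with 10 of 10 below 0, among them Vwf at -0.24, Kdr at -0.18, Tek at -0.13 and Tie1 at -0.13. Cldn5 was nearest to 0, at -0.14, without WT3, its highest library. Leaving out KO1 gave -0.60, with Egfl7 alone above 0 at 0.10.

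WT1 and KO1, the libraries that the first principal component set apart, share a replicate number in the labels. KO1 was the second-highest library for 7 members, and the 2 members lowest in KO1 were Cldn5 and Egfl7. Without both libraries the median was -0.25, 8 of 10 members lay below 0, Pecam1 was at 0.33 and Egfl7 at 0.26, and the ratio of the sums was 0.907. The fit that leaves out the markers of epididymis, testis, vas deferens and seminal vesicle gave a median of -0.36 with 10 of 10 below 0. It took out only the rows of these markers, so it cannot show what other RNA of these tissues adds to the members.

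Compared within replicate numbers, 7 members were lower in the knockout library of all 3 numbers: Cdh5, Vwf, Eng, Kdr, Tek, Tie1 and Emcn. That held for 13.2% of all genes tested. Kdr gave log2 ratios of -0.26, -0.50 and -0.41 in numbers 1, 2 and 3, and Tie1 gave -0.23, -0.44 and -0.30. For Eng the ratio was largest in number 1, at -1.04, against -0.30 and -0.19.

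The exceptions were Pecam1, Cldn5 and Egfl7, which were higher in KO2 than in WT2. Pecam1 gave -0.70, 0.60 and 0.063, Cldn5 gave -0.78, 0.25 and -0.63, and Egfl7 gave -0.92, 0.69 and -0.15. The ratio of the member sums was 0.674, 1.03 and 0.811 in the 3 numbers. With the replicate number as a block in the edgeR fit, 10 of 10 members stayed below 0 and 0 passed. The unadjusted p in that quasi-likelihood fit ran from 0.056 (Kdr, adjusted p = 0.93) to 0.97 (Pecam1). Without the block, the same test gave 0.24 for Kdr and 0.74 for Pecam1.

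**Figure D3:**
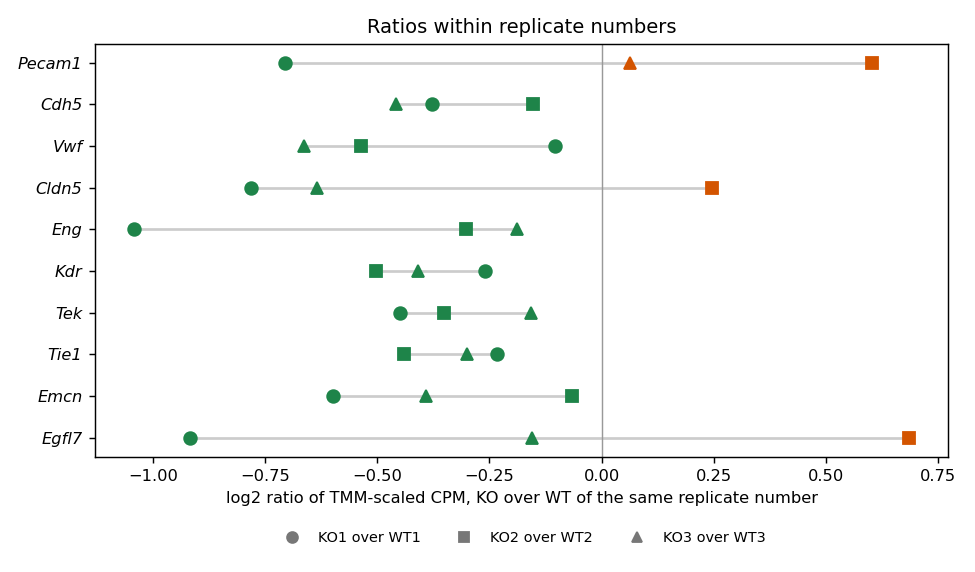
Log2 ratio of TMM-scaled CPM, KO over WT of the same replicate number (x axis), for each endothelial marker gene, with marker shape for the number, green below 0 and orange above 0. The rows of 7 genes are green throughout, and the orange points belong to Pecam1 (numbers 2 and 3), Cldn5 and Egfl7 (number 2).

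For 7 of the 10 markers, the share of the sum varied less between libraries (1.40-fold to 1.55-fold) than the sum itself (2.02-fold). Tek held 4.68% to 6.57% of the summed CPM in every library and Tie1 3.03% to 4.25%, a 1.40-fold range each. Pecam1 had the largest share in every library, at 22.6%, 18.4% and 17.5% in wild type and 20.6%, 27.0% and 22.6% in knockout. The exceptions were Egfl7, from 5.99% in KO1 to 15.1% in KO2, Cldn5, from 5.16% in KO1 to 12.1% in WT3, and Eng, from 7.60% in KO2 to 16.3% in WT1. Exact two-sided permutation tests of the 10 shares between genotypes gave p from 0.3 to 1.0, and the smallest they can give is 0.1.

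KO2, in which Pecam1 and Egfl7 had their largest shares, also had the highest levels of platelet genes. Pf4, which encodes platelet factor 4, measured 32.8, 24.2 and 30.1 CPM in wild type and 25.3, 99.2 and 34.3 CPM in knockout. Itga2b, the platelet integrin alpha IIb, was at 36.6 CPM in KO2 and at 4.35 to 14.9 CPM elsewhere. Of the 10 platelet genes listed, 4 passed the filter, and the sum over all 10 was 44.8 to 51.2 CPM in wild type and 36.4 to 143 CPM in knockout, and Ppbp and Gp9 did not share the high level in KO2. The part of platelets in the Pecam1 values was not tested.

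Neighbouring genes share exon bases with Eng and Egfl7, and whether reads were counted by strand is not given in the sources used here. Eng shares 124 exon bases with Ak1 on its own strand and 61 with Fpgs on the other, and Egfl7 shares 64 with Agpat2 on the other strand and 264 with Gm20532 on its own. Counts of Eng and Egfl7 are uncertain to that extent. Agpat2, a lipid synthesis enzyme of adipocytes, measured 86.8, 137 and 141 CPM in wild type and 284, 89.4 and 63.4 CPM in knockout, and so was highest in KO1, where Egfl7 was lowest. Gm20532 was not analysed here. Fpgs was at 8.52 and 9.60 CPM in WT1 and KO1 and at 21.4 to 33.5 CPM in the other libraries, while Ak1 lay between 13.8 and 21.4 CPM in all 6.

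Other genes of endothelial cells were mostly highest in WT1 too. Of 24 such genes, all tested, 20 lay below 0, with a median log2 fold change of -0.36, and the same 20 were highest in WT1, while 0 passed edgeR's adjusted p. The smallest p in this list belonged to Robo4, a guidance receptor of endothelium, at 91.0, 47.9 and 60.8 CPM in wild type and 60.0, 30.3 and 44.2 CPM in knockout. The 4 exceptions, named after their values were seen, were Calcrl (log2 fold change 0.14), Tspan18 (0.059), Ly6c1 (0.083) and Sparcl1 (0.52), whose highest library was KO1 or KO2. Sparcl1, which smooth muscle and pericytes also express, was at 252 to 293 CPM in wild type and at 466, 473 and 211 CPM in knockout.

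The same was seen for transcription factors of endothelium. Of 18, 15 lay below 0 with a median of -0.32, and 16 were highest in WT1. The 3 above 0, named after their values were seen, were Gata2 (0.45), Hhex (0.21) and Mef2c (0.061). Sox7, an early endothelial SOX factor, had the largest difference, with 85.5, 37.6 and 24.3 CPM in wild type and 28.2, 10.8 and 21.5 CPM in knockout, a log2 fold change of -1.28. Erg, the ETS factor most restricted to endothelium, gave 31.3, 17.7 and 19.9 CPM against 18.7, 13.9 and 13.2 CPM, a log2 fold change of -0.58, and Bcl6b gave -0.64. The other ETS genes of the list, named after their values were seen, gave -0.42 (Fli1), -0.51 (Ets1), -0.23 (Ets2) and -0.28 (Elk3). The adjusted p of each of these factors in edgeR's quasi-likelihood test was 1.00.

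**Figure D4:**
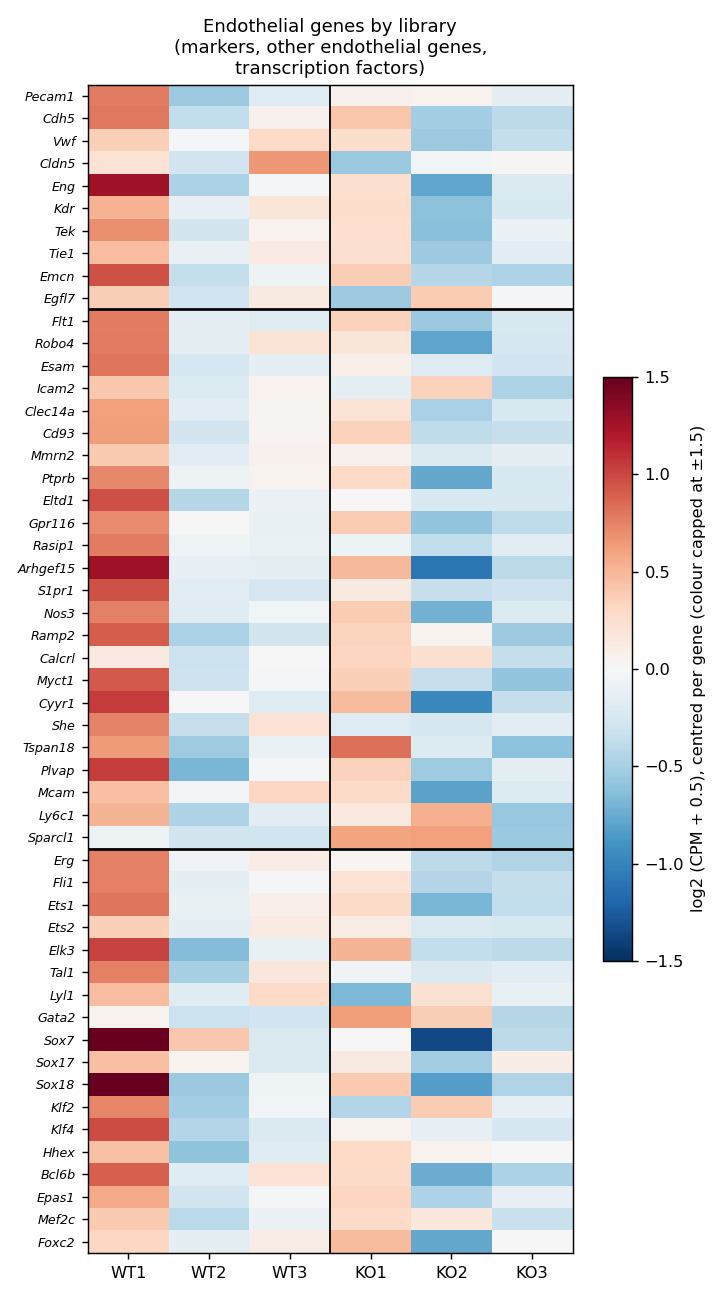
Log2 (CPM + 0.5), centred per gene, in the 6 libraries (columns) for the 10 markers, 24 other endothelial genes and 18 endothelial transcription factors (rows, separated by lines), with colours capped at ±1.5. The WT1 column is red for most rows and KO1 next, with blue for Cldn5 and Egfl7 in KO1.

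Ligands of the receptors lay on both sides of 0. Of 7 tested, 4 lay below 0, with a median of -0.097, and 0 passed. Vegfa, the ligand of KDR, which adipocytes themselves produce, measured 380, 204 and 194 CPM in wild type and 316, 157 and 205 CPM in knockout (log2 fold change -0.20), highest in WT1 and KO1 like its receptor. Vegfc was at 0.068, Figf (VEGF-D) at 0.047, Tgfb1 at -0.097 and Tgfb3 at -0.34 on the log2 scale. Angpt1, the activating ligand of TEK, stood at 17.1, 20.2 and 11.01 CPM in wild type and 48.3, 19.1 and 9.4 CPM in knockout, so its positive log2 fold change of 0.67 rested on KO1. Angpt2, the context-dependent antagonist, gave -0.22, with its lowest levels, 4.09 and 4.08 CPM, in WT1 and KO1. Gdf2, which encodes BMP9, did not pass the filter, at 0 to 0.47 CPM.

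Partner receptors and regulators lay below 0 for 8 of 9, with a median of -0.33. Nrp1 gave -0.34, Nrp2 -0.029, Flt1 -0.33, Flt4 -0.43, Tgfbr2 -0.13 and Bmpr2 -0.088 on the log2 scale, and Tgfbr1, at 0.082, was the exception. Ptprb, the phosphatase that restrains TEK and VE-cadherin signalling, gave -0.44. Acvrl1, which encodes ALK1, the kinase receptor that works with endoglin, measured 85.7, 55.7 and 66.6 CPM in wild type and 49.8, 52.5 and 53.5 CPM in knockout. It was the only gene of this list whose knockout libraries all lay below the wild-type libraries, by -0.42 on the log2 scale (adjusted p = 1.00, edgeR's quasi-likelihood test), a pattern that 3.37% of all genes tested showed.

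Downstream of that receptor, 7 of 8 BMP target genes lay below 0 with a median of -0.17. Smad6, an inhibitory SMAD, measured 41.7, 30.1 and 35.5 CPM in wild type and 20.5, 24.4 and 28.3 CPM in knockout with no overlap, as in 3.37% of all genes (log2 fold change -0.55), and Smad7 gave -0.59. Id2 went the other way, at 0.83, with its highest level in KO2. Smad6 was the only one of the 8 at an unadjusted p under 0.05, beside 1.88% of all genes, and its adjusted p in edgeR's quasi-likelihood test was 1.00.

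Among other junction genes, which many cell types share, 7 of 13 lay below 0 with a median of -0.023. Jup, which encodes plakoglobin and binds VE-cadherin, gave 365, 221 and 260 CPM against 211, 146 and 219 CPM with no overlap of genotypes, the only such gene of the 13 (3.37% of all genes), and a log2 fold change of -0.56. F11r gave 0.19 and Ctnnd1, p120 catenin, -0.27.

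Lists for types of vessel had different medians, a difference that was not tested. Of 7 capillary genes tested, 6 lay below 0 with a median of -0.41, among them Cd300lg (-0.70), Meox2 (-0.60) and Btnl9 (-0.63). Arterial genes had a median of -0.19 over 9, with Dll4 at -0.65, Sema3g at -0.31 and Efnb2 at 0.27. Venous and activation genes had a median of -0.029 over 9, with Lrg1 at -0.55 and Nr2f2 at 0.48. Of 6 lymphatic genes, 1 (Flt4) lay below 0, and the median was 0.083. Prox1, the lymphatic master regulator, was at 0.40 and Mmrn1 at 0.24. The Prox1 value rested on KO1, at 9.87 CPM against 2.74 to 5.48 CPM in the other libraries. None of these genes passed edgeR's adjusted p.

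Markers of other cells of the fat pad were compared by their summed level. The sums lay at 833 to 1350 CPM in wild type and 670 to 1319 CPM in knockout for 8 pericyte genes, with the highest sums in WT1 and KO1 as for the endothelium. Of these 8 genes, 3 were highest in WT1. One of the 3, Mcam, is also on the list of other endothelial genes and held 442 CPM in WT1 and 395 CPM in KO1. The macrophage list gave 1377 to 2060 CPM and 1576 to 1786 CPM, and the fibroblast list 3707 to 5579 CPM and 3835 to 5402 CPM, both highest in WT1. The adipocyte list gave 24550 to 28227 CPM and 19747 to 29897 CPM, with the highest sum in KO2. Of that list only Fabp4 and Cfd were highest in KO2, at 10571 and 11365 CPM. Plin1, Lep, Cidec, Lipe, Pnpla2, Pparg and Aqp7 were lowest in KO2. Smooth muscle genes stood apart: 9 of 9 lay above 0, and their sum was 705 to 944 CPM in wild type and 3048, 6444 and 740 CPM in KO1, KO2 and KO3. Red blood cell genes lay below 0 for 7 of 7, with a sum of 996 to 6254 CPM in wild type and 935 to 3242 CPM in knockout, highest in WT2, where the endothelial sum was lowest. Their part in the endothelial values was not tested.

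**Figure D5:**
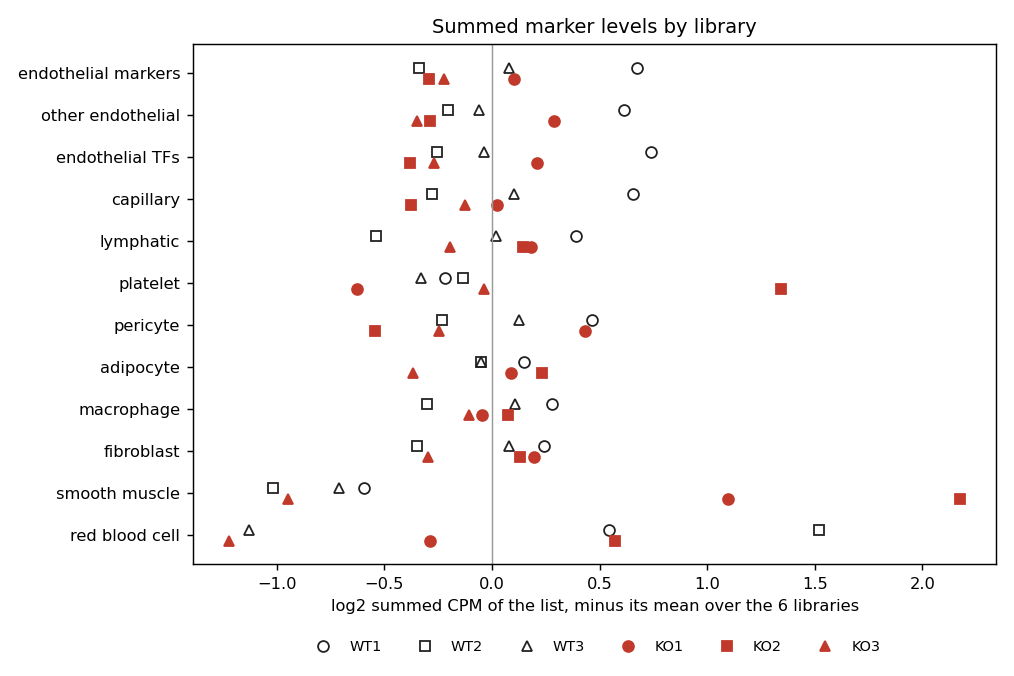
Log2 summed CPM of each gene list minus its mean over the 6 libraries (x axis), with open black symbols for WT, filled red symbols for KO and shape for the replicate number. WT1 lies furthest right in the endothelial, transcription factor, capillary, lymphatic, pericyte, macrophage and fibroblast rows, whereas KO2 lies furthest right for platelet, adipocyte and smooth muscle genes. Within the adipocyte row only Fabp4 and Cfd are highest in KO2. The pericyte row includes Mcam, which is also among the other endothelial genes.

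The genes whose levels followed the markers most closely over the 6 libraries were Mmrn2, Mtap7d1, Pkhd1l1, Pde2a, Sept11 (stored in the deposited table as the number 41163), Wasf2, Kctd12, Pdzd4, Pml and Sema6b. Likeness was taken as Pearson r with the mean centred log2 CPM of the 10 members, which was 0.65, -0.29 and 0.12 in wild type and 0.10, -0.37 and -0.21 in knockout. It was above 0.9 for 542 genes, 3.37% of those tested, a count that includes the members Eng, Cdh5, Tek, Emcn, Tie1 and Kdr. All points share the same 6 libraries. For the 10 genes named above, r was at least 0.992. Mmrn2, an endothelial matrix protein and the nearest of them, measured 86.3, 58.4 and 68.9 CPM in wild type and 68.8, 56.5 and 59.4 CPM in knockout, a narrower range than any of the 10 markers. Each member also entered that mean, so its r is not directly comparable with that of a gene outside it. Among the members themselves r was 0.98 for Eng, 0.96 for Cdh5 and Tek, 0.95 for Emcn, 0.92 for Tie1, 0.91 for Kdr, 0.81 for Vwf and 0.79 for Pecam1, but 0.33 for Cldn5 and 0.21 for Egfl7.

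Base composition was set beside this pattern because libraries can differ in it. In the libraries numbered 1 (WT1 and KO1) against the other 4, 8 members were higher by 0.47 (Vwf) to 1.14 (Eng) on the log2 scale, Cldn5 was at -0.26 and Egfl7 at -0.14. Over all genes, cut into 5 equal groups by GC content of the longest coding transcript, the median of that difference ran from 0.062 in the lowest group to -0.063 in the highest. Cldn5 (60.5% GC) and Egfl7 (57.1%) belong to the highest group, as do Vwf (56.5%), Eng (57.7%) and Tie1 (58.2%), which were higher in the libraries numbered 1. Whether base composition plays a part in the members' levels was not tested.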

How the data were processed

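RNA of eWAT from 3 wild-type and 3 Maf1 knockout mice was sequenced with 1 library per mouse. The authors deposited HTSeq counts per gene, handled here under the unit of expected counts because the columns also hold decimals in closing lines that name no gene. Per the submitters' processing notes, CASAVA, GSNAP, HTSeq and edgeR were used with build mm9, the reads being aligned with GSNAP and counted per gene with HTSeq. The counts are whole for every gene, and 2 lines that name no gene were dropped. The 6 deposited columns of normalized counts and the authors' fold changes, p-values and Pol III tables were not used.

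Genes were filtered with filterByExpr, which kept 16101, normalized by TMM and tested in edgeR 4.0.16 (R 4.3.3) by quasi-likelihood on genotype alone, with Benjamini-Hochberg adjustment over all genes and a threshold of 0.05. The tests were first tried on simulated data. CPM are TMM-scaled. Lengths come from a GENCODE annotation of mm9. Alternatives tried were limma 3.58.1 (voom), edgeR's exact test, DESeq2 1.42.0, other scaling factors and filters, and the replicate block. Ratios within replicate numbers and leaving out libraries were also tried. An offset of 0.01 CPM entered only the share of all genes lower in knockout within every replicate number, not the members' ratios. Python 3.11.15, pandas 2.3.3, numpy 2.4.6, scipy 1.17.1 and matplotlib 3.10.9 were used.

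Pairing by replicate number was checked by correlating the deviations of same-numbered libraries from their group means. This gave 0.64, 0.39 and 0.36, each over the limit of 0.1. Libraries of different numbers were not correlated, so the check cannot show that the numbers mark pairs. The main fit left the replicate number out. The labels do not say what a number marks, and the mice are separate animals. The members and the 22 gene lists were chosen with earlier results of these data known. Some lists share genes (Mcam, Flt1, Ptprb, Nrp2, Flt4, Sox17 and Hey1), so they are not independent of each other. Named are the 10 members, all ligands and partner receptors with at least 3 counts, up to 3 genes with the smallest p of each other list, the 10 genes most like the members and overlapping neighbours. Totals were 7207476 to 15971900 counts per library. Counting errors come from Poisson sampling and cover counting error only.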

Additional observations from a re-analysis of the deposited data

How the results depend on the processing

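No alternative brought a member past an adjusted p of 0.05. Over the 18 alternatives with a test, the lowest adjusted p of a member was 0.78. Of 210 member values under 21 alternatives, 198 lay below 0. These alternatives reuse the same 6 libraries, so the values are not independent of each other. With the replicate block the median log2 fold change was -0.34, 10 of 10 members lay below 0 and the block changed no call. Genes called over the whole table numbered 0 with the quasi-likelihood test and limma voom, 14 with DESeq2 and 4 with the exact test of edgeR, none of them members. The median was -0.34 to -0.39 under the other tools, scalings and filters.

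Leaving out 1 library moved the median between -0.60 and 0.012 (without WT1), the ratio of sums between 0.691 and 0.991 and the number of members below 0 between 5 and 10. The log2 fold change then ranged from -0.37 to 0.36 for Pecam1, -0.70 to 0.035 for Cdh5, -0.96 to 0.043 for Eng, -0.75 to 0.094 for Emcn and -0.35 to 0.10 for Egfl7, the highest value coming without WT1 except for Egfl7, which was at 0.052 without WT1 and at 0.10 without KO1. The range was -0.68 to -0.24 for Vwf, -0.62 to -0.14 for Cldn5, -0.63 to -0.18 for Kdr, -0.56 to -0.011 for Tek and -0.53 to -0.13 for Tie1. Without WT1 and KO1 together Pecam1 was at 0.33 and Egfl7 at 0.26. Within number 2 Pecam1 was at 0.60, Cldn5 at 0.25, Egfl7 at 0.69 and the ratio of sums at 1.03, and within number 3 Pecam1 was at 0.063. The cause was not tested. With 3 mice a group, an exact permutation test cannot go below 0.1.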
